A study of Rattus norvegicus with 14 samples.

Results

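The 10 genes described here encode the core of the BCL2 family, the proteins that decide whether a cell keeps or loses the integrity of its mitochondria. They were chosen by symbol from the annotation of the array: the survival genes Bcl2, Bcl2l1 and Mcl1, the pore-forming effectors Bax and Bak1, and the BH3-only genes Bid, Bad, Bcl2l11, Bbc3 and Pmaip1. Of these 10 genes, 8 had at least 1 probe set of their own, 13 probe sets in all, among 13184 genes measured. The single probe set of Bax is also assigned to LOC681314, so its values are given as those of a shared probe set and are left out of the counts. Pmaip1, which encodes NOXA, was not analysed here.

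Proteins of this family act at the outer mitochondrial membrane. BAX and BAK can open pores through which cytochrome c leaves the mitochondria and starts the caspase cascade, and BCL2, BCL-XL (the product of Bcl2l1) and MCL1 hold them in check. The BH3-only proteins BID, BAD, BIM (Bcl2l11), PUMA (Bbc3) and NOXA carry death or stress signals to the other members, either by occupying the survival proteins or by activating the effectors. Heart muscle cells are rarely replaced, and mice that lack MCL1 in heart muscle develop heart failure. Several members are also controlled as proteins, BAD by phosphorylation, BID by cleavage and MCL1 by rapid turnover, and arrays of RNA do not measure that.

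The cells were ventricular myocytes isolated from the hearts of Sprague-Dawley rat pups aged 2 days, cultured without serum. The 5 groups were phenylephrine (PE) for 6 h with JQ1 (3 arrays) or with its vehicle DMSO (2 arrays), PE for 48 h with JQ1 (3 arrays) or with DMSO (3 arrays), and unstimulated cells that received DMSO and are labelled 90 min (3 arrays). PE, used at 100 µM, is an alpha1-adrenergic agonist that drives hypertrophy of cultured myocytes, and JQ1 competes with acetylated histones for the bromodomains of BET proteins. No group received JQ1 without PE, the unstimulated group differs from the PE groups in time as well as in PE, and the labels disagree on whether JQ1 or PE came first. The sources used here do not state the JQ1 dose. They do not tie replicates to separate cultures either, so p-values reflect only array-to-array spread, which may be technical.

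Expression is given on the log2 scale, and the brightest probe set of a gene stands for it unless another is named. Changes are log2 fold changes ± SE from 1 limma fit over the 14 arrays, with p-values adjusted by the Benjamini-Hochberg method over all genes and called below 0.05. Array medians lay between 7.28 and 7.43, and the correlation within groups was 0.9976 to 0.9986 over all probe sets. A level below 6.23, the 30th percentile of gene means, is called dim, and changes between dim levels are uncertain in size. Where arrays of groups are said not to overlap, the share of all genes that did so was not counted. The myocyte label was borne out by 10 of 10 listed cardiomyocyte markers, which ranged from 11.86 to 14.70. Fibroblast transcripts were abundant too, with Col1a2 between 13.24 and 13.81, and in such bulk samples fewer cells of a type cannot be told apart from less RNA per cell. Of 6 endothelial markers, Pecam1, Tie1, Emcn and Vwf were dim on every array (3.79 to 5.31), while Kdr ranged from 5.45 to 7.51 and Tek from 6.37 to 7.38.

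The 250 bases before an annotated start of transcription are shown for Bid, Mcl1 and Bcl2l11. Bid is the one of the 8 genes that JQ1 lowered most at 48 h. Mcl1 was the member with the widest range between groups, and Bcl2l11 rose under JQ1 on both probe sets at 6 h. The Bcl2l11 window ends where the annotated gene begins (135820042). The Bid and Mcl1 windows lie inside the annotated genes (155785366 to 155808775 and 185884840 to 185912532), which extend upstream of them. The windows are RefSeq sequence of the GRCr8 assembly, printed 5′ to 3′ along the gene. RefSeq windows were found for 8 of the 10 genes. Capitals mark matches on either strand to the SP/KLF GC box (GGGCGG), the CCAAT box (CCAAT) and the FOXO motif (GTAAACA), none of which overlapped another in these 3 windows.
Bid, chr4:155808320-155808569, minus strand: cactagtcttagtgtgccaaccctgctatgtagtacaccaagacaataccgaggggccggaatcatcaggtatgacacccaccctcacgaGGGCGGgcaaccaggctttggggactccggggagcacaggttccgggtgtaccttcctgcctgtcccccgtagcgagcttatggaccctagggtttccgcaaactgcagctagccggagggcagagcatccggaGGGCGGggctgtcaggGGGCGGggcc
Mcl1, chr2:185907918-185908167, plus strand: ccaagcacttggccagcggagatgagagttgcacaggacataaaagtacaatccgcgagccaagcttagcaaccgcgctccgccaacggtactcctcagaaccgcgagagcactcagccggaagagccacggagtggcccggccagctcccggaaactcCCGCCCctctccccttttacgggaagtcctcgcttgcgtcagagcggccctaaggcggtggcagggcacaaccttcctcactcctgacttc
Bcl2l11, chr3:135819792-135820041, plus strand: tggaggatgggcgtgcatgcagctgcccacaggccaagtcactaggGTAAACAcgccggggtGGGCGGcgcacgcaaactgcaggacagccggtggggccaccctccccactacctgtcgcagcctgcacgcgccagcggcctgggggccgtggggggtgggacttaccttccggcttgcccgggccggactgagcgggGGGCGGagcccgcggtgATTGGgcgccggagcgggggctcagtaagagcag

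The Bid window held 3 GC boxes, the Bcl2l11 window 2 and the Mcl1 window 1, and 30.5% of 33469 promoter windows of this length held at least 1. The FOXO motif, found in 3.21% of windows, was present once in the Bcl2l11 window. It was also present once in the window of Bad, which is not shown and which fell under JQ1. BIM is known as a target of FOXO factors, which the kinase AKT keeps out of the nucleus. Matches to the TATA box (TATAAA), the E box (CACGTG), the cyclic AMP response element (TGACGTCA) and the AP-1 motif (TGANTCA), also searched on both strands, were not present in these 3 windows, and their shares over all windows were 12.9%, 5.59%, 1.59% and 6.34%. These matches describe the letters of the windows and are not evidence of binding.

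JQ1 lowered more of the family than it raised at both times. At 6 h of PE, 5 of 8 genes fell (Bcl2l1, Bak1, Bid, Bad and Bbc3) and 2 rose (Mcl1 and Bcl2l11), where 28.8% of all genes fell and 25.5% rose. At 48 h of PE, 5 of 8 fell (Bcl2l1, Mcl1, Bak1, Bid and Bad) and 0 rose, where 29.6% of all genes fell and 30% rose. The median change of the 8 genes was -0.32 at 6 h and -0.19 at 48 h, against 0.00 and 0.02 over all genes. Of the calls over all genes, 47.0% were raised at 6 h and 50.4% at 48 h, shares that became 53.8% and 60.0% with quantile normalization repeated and 61.9% and 65.2% with arrays centred on their medians, which moved the median of all genes to 0.099 and 0.129. PE alone moved fewer members: 3 rose (Mcl1, Bak1 and Bid) and 1 fell (Bbc3) at 6 h, where 18.3% and 18.9% of all genes did. At 48 h of PE, 2 rose (Bcl2l1 and Bak1) and 2 fell (Mcl1 and Bbc3), against 21.4% and 22.6% of all genes. The PE and JQ1 comparisons share the DMSO with PE arrays, so opposite signs in them are not independent.

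**Figure D1:**
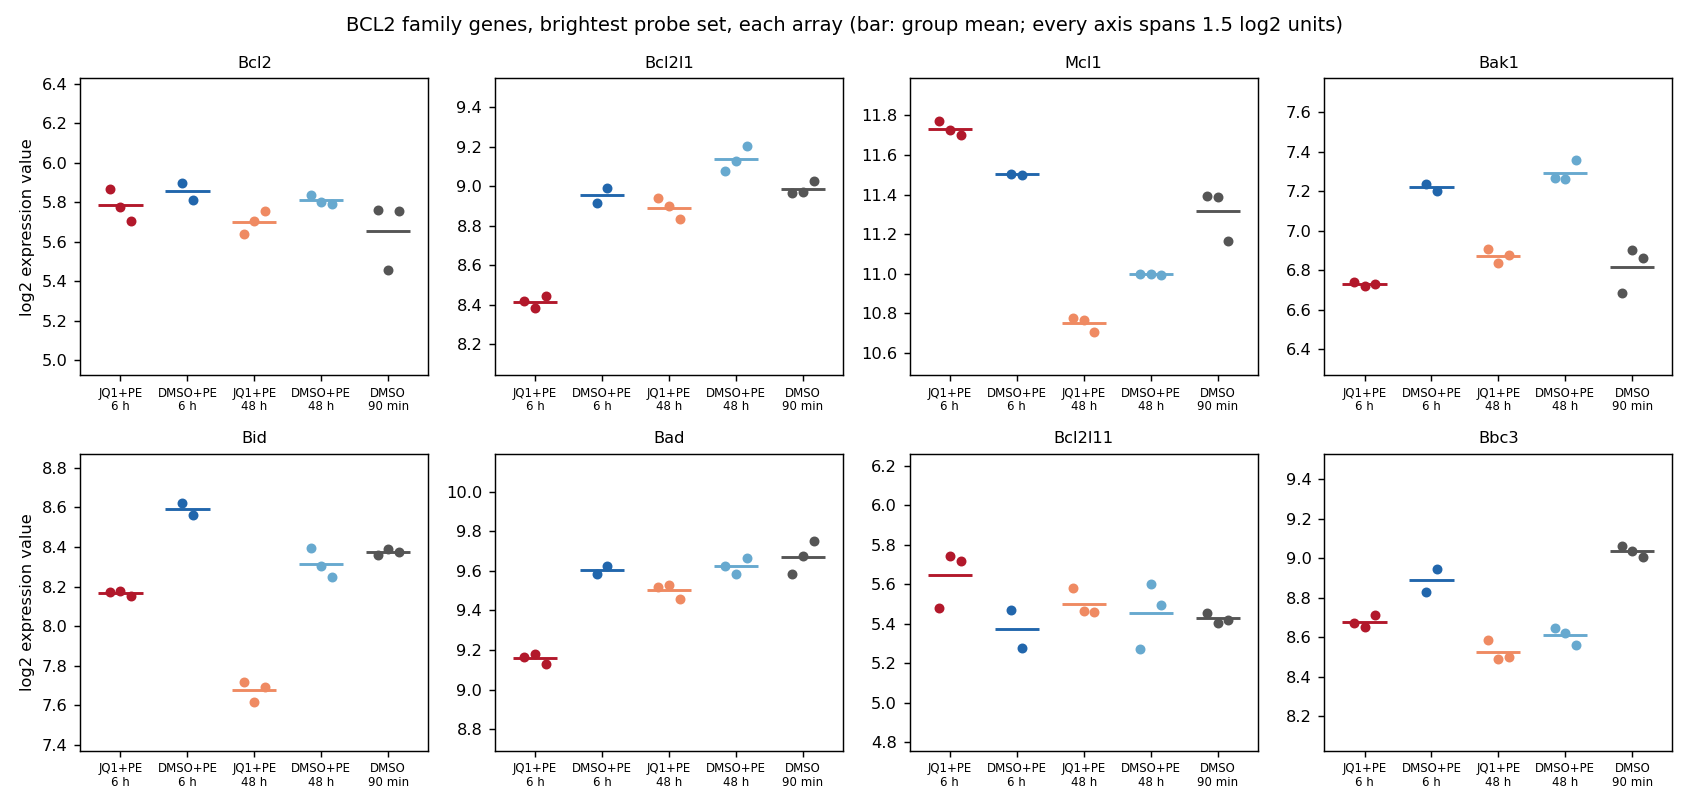
Log2 expression values of 8 BCL2 family genes (brightest probe set) on each array, by group, with bars at group means and every vertical axis spanning the same range of log2 units. The 3 arrays with JQ1 and PE at 6 h lie below the 2 DMSO arrays for Bcl2l1, Bak1, Bid, Bad and Bbc3. They lie above them for Mcl1 and, by the narrowest gap, Bcl2l11. The share of all genes separated in this way was not counted.

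**Figure D2:**
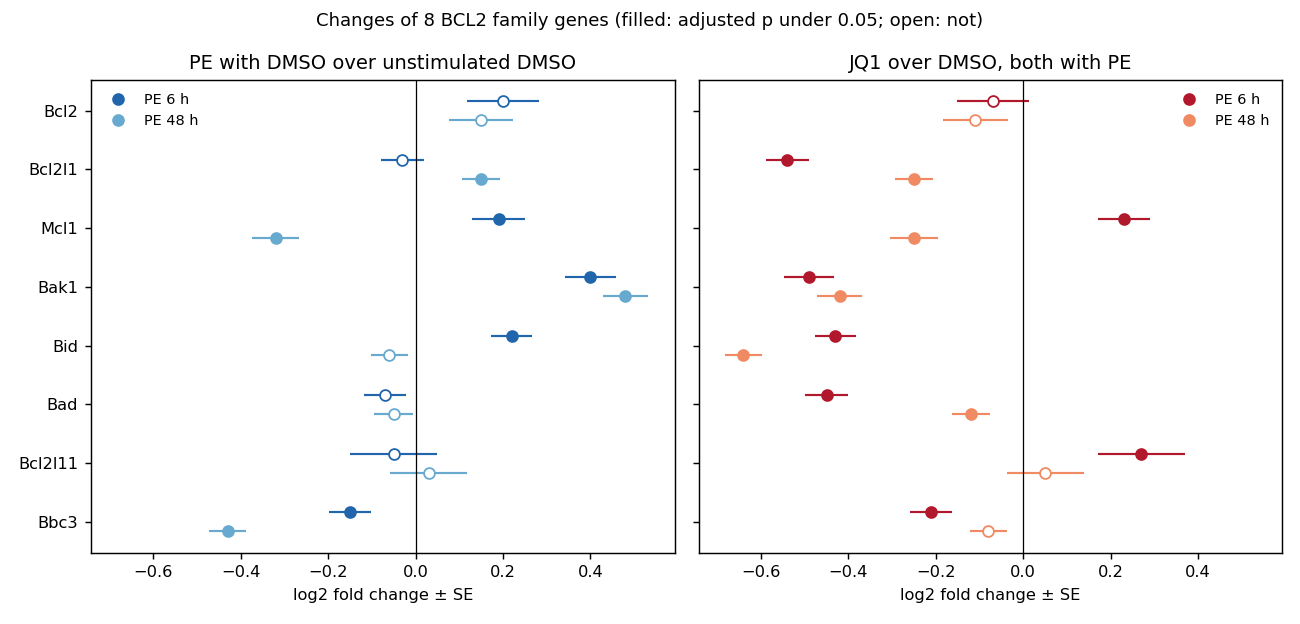
Log2 fold changes ± SE of the same 8 genes, for PE over unstimulated cells (left) and JQ1 over DMSO with PE present (right), at 6 h and 48 h. Filled points passed an adjusted p of 0.05. Under JQ1 the points of Bcl2l1, Bak1, Bid and Bad are filled and left of 0 at both times.

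Among the members Bcl2, Bcl2l1 and Mcl1, Bcl2l1 was the survival gene that fell under JQ1 at both times. Outside the members, the survival gene Bcl2l2 also fell at both times (-0.70 at 6 h and -0.35 at 48 h). The brightest Bcl2l1 probe set, 1370812_at, read 8.42, 8.39 and 8.45 with JQ1 and PE at 6 h, against 8.92 and 8.99 with DMSO and PE. That is a change of -0.54 ± 0.049 (1.45-fold lower, adjusted p = 1.09e-06), and 11.1% of all genes fell further. At 48 h it read 8.94, 8.90 and 8.83 with JQ1, against 9.08, 9.13 and 9.21 with DMSO (-0.25 ± 0.044, adjusted p = 0.000289). Arrays of the groups did not overlap at either time. The JQ1 effect was smaller at 48 h than at 6 h by 0.29 ± 0.066 (adjusted p = 0.00342). PE for 48 h raised Bcl2l1 slightly over the unstimulated arrays, which read 8.96, 8.97 and 9.03 (0.15 ± 0.044, adjusted p = 0.0142), and also over PE for 6 h (0.18 ± 0.049, adjusted p = 0.0112). Without the highest array of the DMSO with PE group at 48 h (replicate 3) the difference from unstimulated cells was 0.12 and did not pass, and without DMSO with PE replicate 1 at 6 h the difference of times was 0.15 and did not pass. The other 2 probe sets, 1369180_at and 1370485_a_at, were dim on every array and passed no comparison, and averaging them in gave -0.17 for JQ1 at 6 h and 0.02 at 48 h.

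On its main probe set, Mcl1 was highest in the groups at 6 h of PE and lowest in those at 48 h. Its main probe set, 1372520_at, read 11.77, 11.73 and 11.70 with JQ1 and PE at 6 h, against 11.50 and 11.50 with DMSO and PE (0.23 ± 0.060, adjusted p = 0.00562). By 48 h it read 10.77, 10.76 and 10.70 with JQ1, against 11.00, 11.00 and 10.99 with DMSO (-0.25 ± 0.054, adjusted p = 0.00133). So JQ1 arrays lay above the DMSO arrays at 6 h and below them at 48 h, and the difference of the JQ1 effects was -0.48 ± 0.081 (adjusted p = 0.000445). In DMSO, Mcl1 fell by 0.51 between 6 h and 48 h of PE (SE 0.060, adjusted p = 3.76e-05). The unstimulated arrays, at 11.39, 11.39 and 11.17, lay between the DMSO with PE groups. Mcl1 rose at 6 h of PE (0.19 ± 0.060, adjusted p = 0.0282) and fell at 48 h (-0.32 ± 0.054, adjusted p = 0.000368). The rise at 6 h did not pass without unstimulated replicate 3, the lowest of its group (0.11), nor without either DMSO with PE array (0.18 and 0.19).

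The dimmer Mcl1 probe set, 1370141_at, showed a larger rise at 6 h and opposed the main one at 48 h. It read 11.27, 11.09 and 11.12 with JQ1 and PE at 6 h, against 10.30 and 10.25 with DMSO and PE, a 1.85-fold rise (0.89 ± 0.063, adjusted p = 1.57e-07 over all probe sets). At 48 h it read 9.91, 9.93 and 9.98 with JQ1, against 9.71, 9.64 and 9.61 with DMSO, where it rose (0.29 ± 0.057, adjusted p = 0.000704) and the main probe set fell. In neither probe set did the arrays of these groups overlap. In both sets the JQ1 effect was lower at 48 h than at 6 h (-0.60 ± 0.085 in the dimmer set, adjusted p = 0.000145), and DMSO with PE was lower at 48 h than at 6 h (-0.62 ± 0.063, adjusted p = 1.29e-05). Which transcripts each set detects was not tested, so the direction of Mcl1 under JQ1 at 48 h is not settled by these arrays.

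Bcl2, the founding survival gene, passed no comparison on its single probe set, which was dim in all 5 groups. It read 5.87, 5.78 and 5.71 with JQ1 and PE at 6 h, against 5.90 and 5.81 with DMSO and PE, and 5.64, 5.71 and 5.76 with JQ1 at 48 h, against 5.84, 5.80 and 5.79 with DMSO. The unstimulated arrays read 5.76, 5.46 and 5.75. The 95% intervals of the JQ1 effect ran from -0.25 to 0.11 at 6 h and from -0.27 to 0.05 at 48 h. The value for PE at 6 h, 0.20 (adjusted p = 0.0807), passed when unstimulated replicate 1 or 3 was left out (0.25 in each case).

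Of the effectors, Bak1 was the member that PE raised and JQ1 lowered at both times. It read 6.74, 6.72 and 6.73 with JQ1 and PE at 6 h, against 7.24 and 7.20 with DMSO and PE (-0.49 ± 0.058, adjusted p = 1.21e-05). The 48 h arrays read 6.91, 6.83 and 6.88 with JQ1, against 7.27, 7.26 and 7.36 with DMSO (-0.42 ± 0.052, adjusted p = 1.27e-05). The unstimulated arrays, at 6.68, 6.90 and 6.86, lay below every DMSO with PE array. The rise with PE was 0.40 ± 0.058 at 6 h (1.32-fold, adjusted p = 0.000141) and 0.48 ± 0.052 at 48 h (1.39-fold, adjusted p = 9.98e-06). With JQ1 present, cells with PE did not differ detectably from unstimulated cells at 6 h (-0.08 ± 0.052, adjusted p = 0.178) or at 48 h (0.06 ± 0.052, adjusted p = 0.356), and their arrays overlapped. The JQ1 effect at 48 h shrank to -0.21 when quantile normalization was repeated, and still passed.

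The probe set that Bax shares with LOC681314, 1369122_at, was bright and moved in small steps. Bax lies on chromosome 1 and LOC681314 on chromosome 10, and the signal cannot be divided between them. It read 10.53, 10.44 and 10.42 with JQ1 and PE at 6 h, against 10.83 and 10.86 with DMSO and PE (-0.38 ± 0.045, adjusted p = 1.45e-05 over all probe sets). The 48 h arrays read 10.57, 10.55 and 10.53 with JQ1, against 10.65, 10.56 and 10.64 with DMSO, and the difference did not pass (-0.07 ± 0.041, adjusted p = 0.197). The unstimulated arrays, at 10.94, 10.93 and 10.96, were the highest. PE for 48 h lowered it by comparison with them (-0.33 ± 0.041, adjusted p = 3.62e-05).

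Among the BH3-only genes, Bid fell under JQ1 at both times and, on its main probe set, fell further at 48 h. BID links death receptors to mitochondria, since caspase-8 cleaves it into its active form. Its main probe set, 1377759_at, read 8.17, 8.18 and 8.15 with JQ1 and PE at 6 h, against 8.62 and 8.56 with DMSO and PE (-0.43 ± 0.047, adjusted p = 6.42e-06). By 48 h it read 7.71, 7.62 and 7.69 with JQ1, against 8.39, 8.31 and 8.25 with DMSO (-0.64 ± 0.042, 1.56-fold lower, adjusted p = 3.23e-08), and 11.0% of all genes fell further. The arrays with JQ1 at 48 h were the lowest of all and did not overlap any other group. The unstimulated arrays read 8.36, 8.39 and 8.37, so PE raised Bid at 6 h (0.22 ± 0.047, adjusted p = 0.00280) and did not change it detectably at 48 h (-0.06 ± 0.042, adjusted p = 0.282). The JQ1 effect differed between times by -0.22 ± 0.063 (adjusted p = 0.0167), which did not pass without DMSO with PE replicate 2 at 6 h (-0.18), and averaging the probe sets gave -0.09. With quantile normalization repeated, the difference between times was -0.15 and did not pass (adjusted p = 0.0815). The dim probe set 1369683_at also fell under JQ1, by 0.37 at 6 h and by 0.33 at 48 h, without a detectable difference between times (0.03 ± 0.12).

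Bad, whose product is inactivated by survival kinases, fell under JQ1 mainly at 6 h. It read 9.17, 9.18 and 9.13 with JQ1 and PE, against 9.58 and 9.62 with DMSO and PE (-0.45 ± 0.049, adjusted p = 5.84e-06). At 48 h it read 9.52, 9.53 and 9.46 with JQ1, against 9.63, 9.59 and 9.66 with DMSO (-0.12 ± 0.044, adjusted p = 0.0268). The effect was smaller at 48 h by 0.32 ± 0.066 (adjusted p = 0.00175). The call at 48 h was lost without DMSO with PE replicate 1 (-0.12) or 3 (-0.10), without JQ1 with PE replicate 3 (-0.10), and when arrays were centred on their medians (-0.01). PE did not change Bad detectably from the unstimulated arrays, which read 9.59, 9.67 and 9.75 (-0.07 ± 0.049 at 6 h and -0.05 ± 0.044 at 48 h).

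Bbc3, the gene of the p53-inducible killer PUMA, stood highest in unstimulated cells. It read 8.67, 8.65 and 8.71 with JQ1 and PE at 6 h, against 8.83 and 8.94 with DMSO and PE (-0.21 ± 0.048, adjusted p = 0.00242). At 48 h the readings with JQ1, 8.59, 8.49 and 8.50, overlapped those with DMSO, 8.65, 8.62 and 8.56 (-0.08 ± 0.043, adjusted p = 0.110). Against the unstimulated arrays, at 9.06, 9.04 and 9.01, PE lowered it at 6 h (-0.15 ± 0.048, adjusted p = 0.0282) and at 48 h (-0.43 ± 0.043, 1.34-fold lower, adjusted p = 4.99e-06). The fall at 6 h did not pass without DMSO with PE replicate 1 (-0.09) or without unstimulated replicate 1 (-0.13) or 2 (-0.15). The JQ1 effect at 6 h was -0.11 and did not pass when arrays were centred on their medians.

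Bcl2l11, the gene of BIM, a strong activator of BAX and BAK, was dim on both of its probe sets, and these differed in the size of their response. The main set, 1370787_at, read 5.48, 5.74 and 5.72 with JQ1 and PE at 6 h, against 5.47 and 5.28 with DMSO and PE (0.27 ± 0.099, adjusted p = 0.0333). That call was lost without DMSO with PE replicate 2 (0.18) and without JQ1 with PE replicate 2 (0.22) or 3 (0.24). The 48 h arrays read 5.58, 5.47 and 5.46 with JQ1, against 5.27, 5.60 and 5.49 with DMSO, and the groups overlapped (0.05 ± 0.088, adjusted p = 0.686). The other set, 1387338_s_at, read 4.78, 4.70 and 4.62 with JQ1 and PE at 6 h, against 3.91 and 3.84 with DMSO and PE (0.82 ± 0.070, adjusted p = 6.97e-07 over all probe sets). At 48 h it read 4.32, 4.32 and 4.16 with JQ1, against 3.67, 3.77 and 3.77 with DMSO (0.53 ± 0.062, adjusted p = 9.60e-06). On this set every JQ1 array lay above every array without JQ1, the unstimulated ones included (3.84, 3.94 and 3.78). By the array maker's naming, a set ending in _s_at may detect transcripts of more than 1 gene, which could not be examined here.

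**Figure D3:**
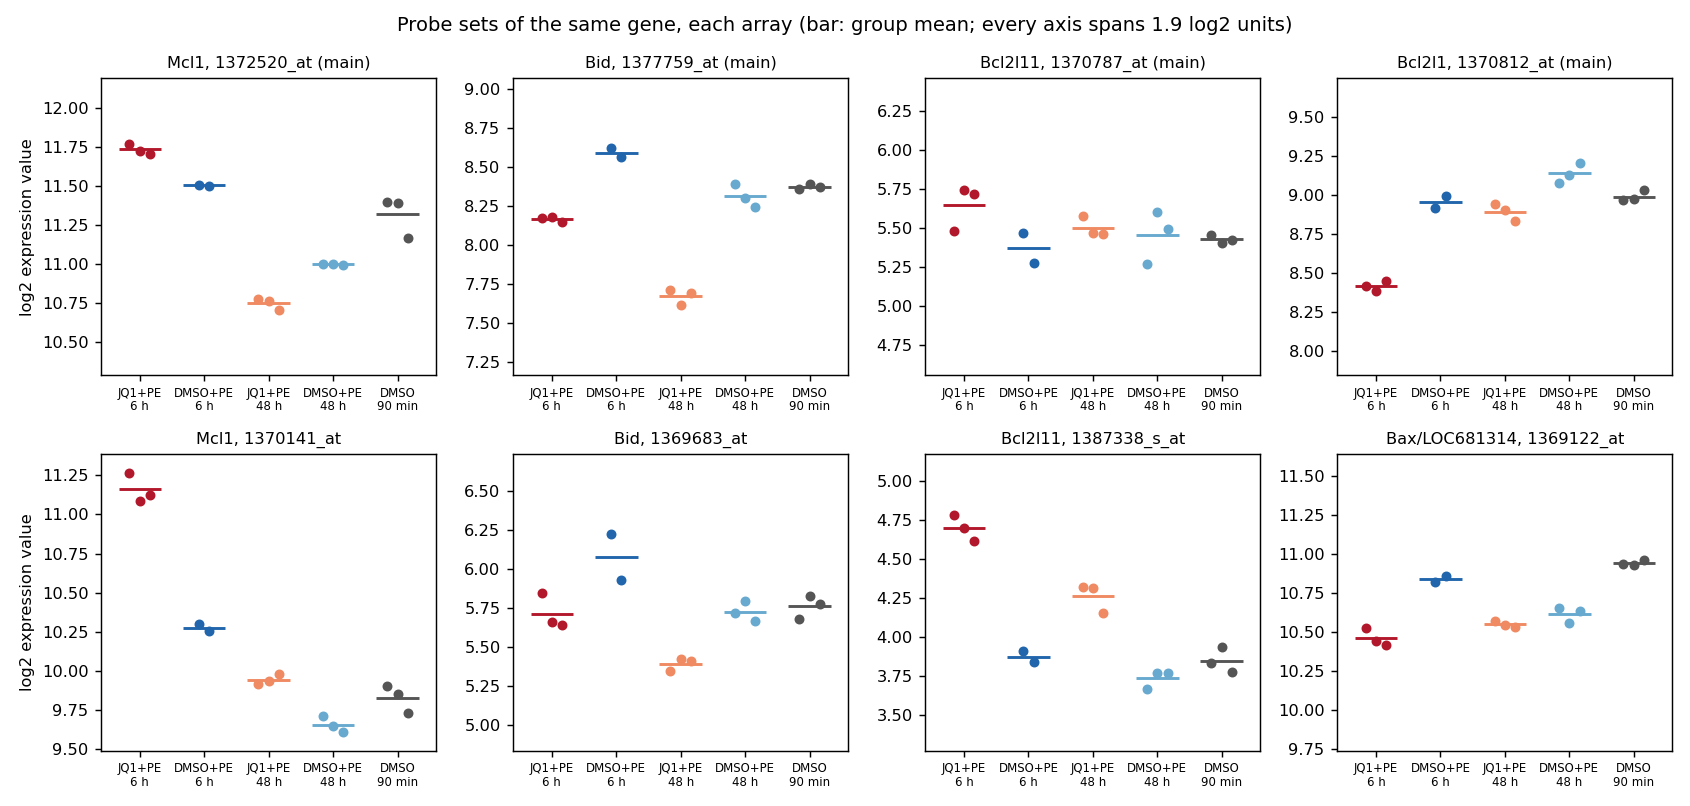
Log2 values on each array for the main probe sets of Mcl1, Bid, Bcl2l11 and Bcl2l1 (top) and for the dimmer sets of Mcl1, Bid and Bcl2l11 and the set shared by Bax and LOC681314 (bottom), with group means as bars. At 48 h of PE the JQ1 arrays lie below the DMSO arrays on the main Mcl1 set and above them on the dimmer one, and the Bcl2l11 sets differ in the size of the JQ1 effect.

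The order of the 5 group levels differed from member to member. For Mcl1 all 4 steps between neighbouring groups passed on the main probe set. Its means fell from JQ1 with PE at 6 h (11.73) to DMSO with PE at 6 h (11.50) and unstimulated cells (11.32). Below these came DMSO with PE at 48 h (11.00) and JQ1 with PE at 48 h (10.75). The dimmer Mcl1 set gave another order. There JQ1 with PE at 48 h (9.94) stood above unstimulated cells (9.83) and DMSO with PE at 48 h (9.65). For Bid, unstimulated cells (8.38) and DMSO with PE at 48 h (8.32) did not differ beyond their spread, and the other 3 steps passed. Bak1 formed an upper pair, DMSO with PE at 48 h and 6 h (7.29 and 7.22), and below them JQ1 with PE at 48 h (6.87), unstimulated cells (6.82) and JQ1 with PE at 6 h (6.73). Neighbours among these last 3 did not differ, but JQ1 with PE at 48 h and at 6 h did (adjusted p = 0.0337). Bcl2l1 and Bad each had JQ1 with PE at 6 h as a distinct lowest group (8.42 and 9.16), below JQ1 with PE at 48 h (8.89 and 9.50). For Bcl2, and for Bcl2l11 on its main set, no neighbouring groups differed. On the dimmer Bcl2l11 set, JQ1 with PE at 6 h (4.70) and at 48 h (4.26) stood above the groups without JQ1. Those were DMSO with PE at 6 h (3.88), unstimulated cells (3.85) and DMSO with PE at 48 h (3.74).

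In the difference of the JQ1 effects between times, 2 of 8 members were higher at 48 h (Bcl2l1 and Bad, where JQ1 lowered the gene less) and 2 were lower (Mcl1 and Bid), where 20.4% and 18.3% of all genes were. Between 48 h and 6 h of PE in DMSO, 1 member rose (Bcl2l1) and 3 fell (Mcl1, Bid and Bbc3), against 16.3% and 18.4% of all genes. The fall of Bid was -0.28 ± 0.047 (adjusted p = 0.000594) and that of Bbc3 -0.28 ± 0.048 (adjusted p = 0.000678).

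Other BCL2 family genes moved in both directions under JQ1. Of 12 measured, 3 rose and 4 fell at 6 h, and 2 rose and 5 fell at 48 h. Over all genes 25.5% rose and 28.8% fell at 6 h, and 30% rose and 29.6% fell at 48 h, which is the background for this and the following lists. The survival gene Bcl2l2, which encodes BCL-W, fell (-0.70 ± 0.045 at 6 h, adjusted p = 5.24e-08, and -0.35 ± 0.040 at 48 h), Bcl2l12 fell (-0.62 ± 0.041 and -0.41 ± 0.037) and Bnip3l, a receptor for the removal of mitochondria, rose (0.70 ± 0.047 at 6 h and 1.01 ± 0.042 at 48 h). Bnip3, a relative of Bnip3l, rose (0.25 ± 0.045 at 6 h and 0.60 ± 0.040 at 48 h). Bok, a BAX-like gene, fell at 48 h (-0.81 ± 0.051), with -0.12 ± 0.057 at 6 h (adjusted p = 0.0913). PE had raised Bok by 1.24 ± 0.057 at 6 h and by 1.13 ± 0.051 at 48 h. The medians of these 12 genes were -0.03 and -0.06 under JQ1, with 5 dim in every group.

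Genes on either side of the mitochondrial step changed in both directions. Of 5 inhibitors of apoptosis and related genes, 1 rose and 2 fell under JQ1 at 6 h, and 1 rose and 3 fell at 48 h. The caspase-8 regulator Cflar fell (-1.26 ± 0.065 at 6 h and -1.49 ± 0.058 at 48 h), Birc2 rose (0.27 ± 0.041 and 0.38 ± 0.036) and Birc5, a gene of dividing cells, fell at 48 h (-1.61 ± 0.068), with -0.13 ± 0.076 at 6 h (adjusted p = 0.188). Of 9 death receptor and adaptor genes, 3 rose and 3 fell at 6 h, and 2 rose and 2 fell at 48 h. The receptor gene Fas fell (-0.73 ± 0.046 and -0.49 ± 0.041), as did the necroptosis kinase gene Ripk3 (-0.82 ± 0.099 and -1.42 ± 0.089), while Ripk1 rose (0.45 ± 0.039 and 0.38 ± 0.035). Of 14 genes of the apoptosome, caspases and mitochondrial proteins, 5 rose and 6 fell at 6 h, and 8 rose and 3 fell at 48 h. Casp8, the protease that cleaves BID, fell (-0.66 ± 0.081 at 6 h and -0.83 ± 0.072 at 48 h). Diablo, an antagonist of the inhibitors of apoptosis, rose (0.20 ± 0.035 and 0.31 ± 0.032), as did Endog (0.41 ± 0.053 and 0.77 ± 0.047). Aifm1 fell at 48 h (-0.60 ± 0.037), with -0.08 ± 0.042 at 6 h (adjusted p = 0.112).

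**Figure D4:**
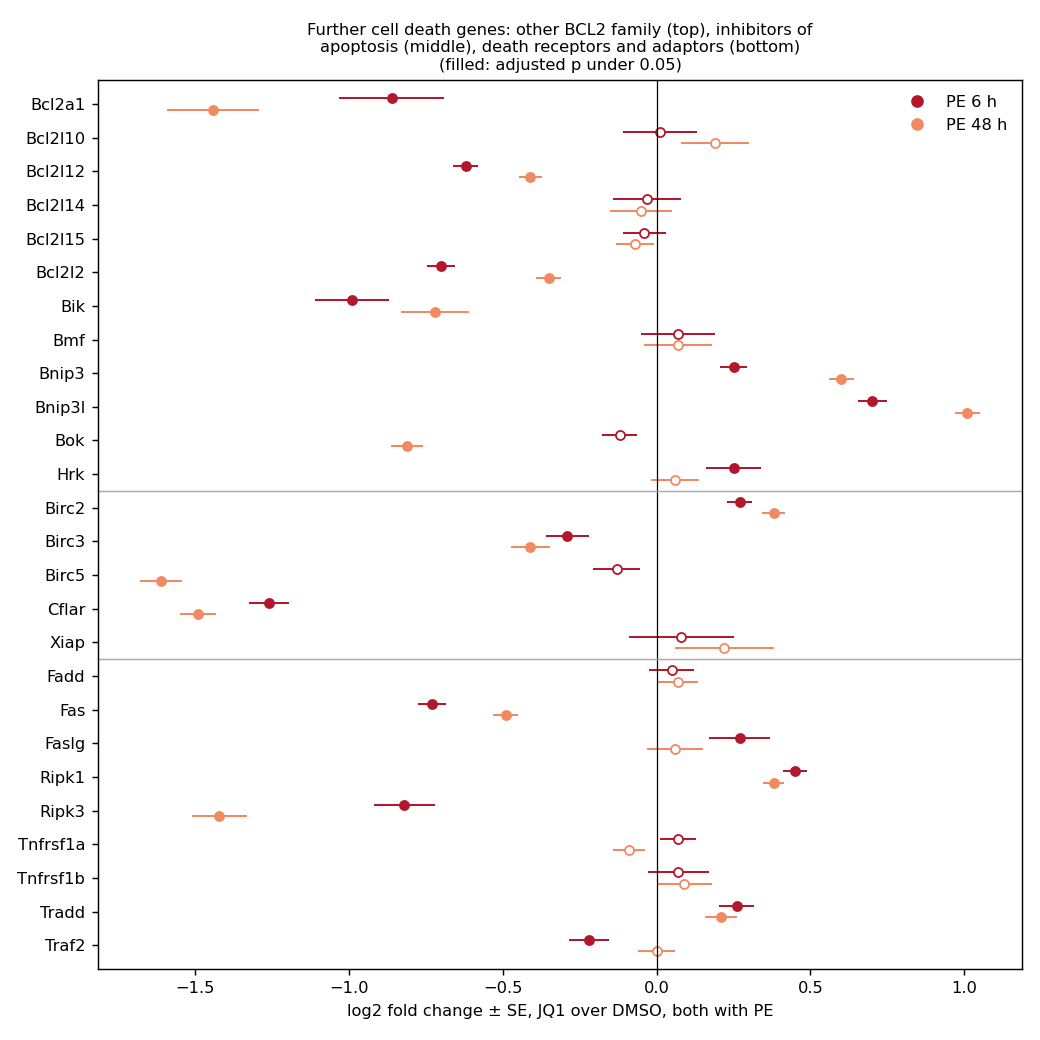
Log2 fold changes ± SE of JQ1 over DMSO, with PE present, at 6 h and 48 h, for 12 other BCL2 family genes, 5 inhibitors of apoptosis and 9 death receptor and adaptor genes. Filled points passed an adjusted p of 0.05. Cflar lies at -1.26 and -1.49 and Ripk3 at -0.82 and -1.42, and Bnip3l lies farthest to the right, at 1.01 at 48 h.

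Regulators of the family moved as well. Of 13 transcription factors known to act on BCL2 family genes, 8 rose and 0 fell under JQ1 at 6 h, and 5 rose and 4 fell at 48 h, where 25.5% and 28.8% of all genes did at 6 h and 30% and 29.6% at 48 h. Atf3 (2.20 ± 0.089), Ddit3 (1.15 ± 0.050) and Myc (1.37 ± 0.087) had the smallest adjusted p at 6 h. At 48 h, Ddit3, the stress factor CHOP, was also raised (1.02 ± 0.045), Myc fell (-0.25 ± 0.078, adjusted p = 0.0146) and Atf3 did not pass (0.07 ± 0.080, adjusted p = 0.499). Stat3 rose at both times (0.23 ± 0.068 at 6 h and 0.54 ± 0.061 at 48 h), and Foxo4 rose at 48 h (0.45 ± 0.046), with 0.03 ± 0.051 at 6 h (adjusted p = 0.652). Of 14 genes of the p53 group, 6 rose and 5 fell at 6 h and 7 rose and 6 fell at 48 h, with Gadd45a (0.87 ± 0.042 and 0.56 ± 0.037) and Sesn1 (0.89 ± 0.084 and 1.64 ± 0.075) higher at both times. Plk2 rose at 6 h (0.65 ± 0.041) and fell at 48 h (-0.70 ± 0.037, adjusted p = 4.32e-09), and the difference of its JQ1 effects was -1.34 ± 0.055 (adjusted p = 4.75e-09). Of 12 genes that control the MCL1, BIM and BAD proteins, 7 rose and 3 fell at 6 h, and 7 rose and 2 fell at 48 h. Akt1, a kinase that phosphorylates BAD, fell (-0.46 ± 0.036 and -0.33 ± 0.032), and Mapk8, the stress kinase JNK1, rose (0.86 ± 0.043 and 0.55 ± 0.039). Pim3, another kinase gene of this list, also rose (0.41 ± 0.048 at 6 h and 0.79 ± 0.043 at 48 h).

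On the brightest probe sets, no member reached a range of 1 log2 unit between group means. That was the level set for a search for genes of like pattern. The widest were Mcl1 (0.98) and Bid (0.92), taken here after their values were seen. The dimmer Mcl1 set ranged further, from 9.65 (DMSO with PE at 48 h) to 11.16 (JQ1 with PE at 6 h), and was not searched. Over the 5 group means, each gene centred on its own mean, the nearest to Bid were Gnb4 (root-mean-square difference 0.027), Rasal3 (0.032) and Ebpl (0.047). Those nearest to Mcl1 on its main set were Rprml (0.064), Fam89a (0.066) and C11h21orf91 (0.072).

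Markers of other cells moved with JQ1 at 48 h beside the falls of the members. All 10 fibroblast markers fell, with a median of -1.39, and their summed linear level ranged from 22379 to 23374 with JQ1 and PE, against 43894 to 44993 with DMSO and PE. At 6 h, 7 of 10 fell, and the sums were 42781 to 43543 with JQ1, against 49782 to 51027 with DMSO. Of 8 leukocyte markers, 3 fell at each time and 0 rose, with sums of 654 to 726 with JQ1 at 48 h, against 1046 to 1155 with DMSO. Cardiomyocyte sums were 139887 to 144622 with JQ1 at 48 h, against 146334 to 148007 with DMSO. Of 6 endothelial markers, 3 fell at 48 h and 0 rose (206 to 238 with JQ1, against 293 to 325 with DMSO). Of 8 smooth muscle and pericyte markers, 7 fell and 1 rose at 48 h (19136 to 19988 with JQ1, against 22181 to 22695 with DMSO). The 1 that rose was Des, the brightest of them with JQ1 at 48 h (mean 13.25), so it weighs heavily in the sum. At 6 h, 6 fell and 2 rose, yet the sum was higher with JQ1 (22478 to 22642, against 20747 to 21305). The part of these shifts in the levels of the BCL2 family genes was not tested.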

How the data were processed

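Biotin-labelled total RNA of 14 samples was measured on Affymetrix rat arrays (per the labels' protocols). The authors deposited log2 values of 20223 probe sets, between 2.71 and 14.70. How they were summarized, background-corrected and normalized is not given in the sources used here. Array medians lay between 7.28 and 7.43. Repeating quantile normalization moved the raised share of the JQ1 calls at 48 h from 50.4% to 60.0%. Per the submitters' processing notes limma was used, at a step that is not named. Probe sets with 1 symbol in the platform table (18510) were updated through the RefSeq gene table of GRCr8, and the brightest of several (3797 genes) was kept. Probe sets with several symbols numbered 305 and those with none 1402, and 6 controls were left out. One model with a mean per group was fitted in R 4.3.3 with limma 3.58.1 (lmFit, eBayes, 9 residual degrees of freedom), two-sided. A second fit over all probe sets gave the values of dimmer sets and of the Bax set. The median SE was 0.0675 where 2 arrays met 3 and 0.0604 for 3 against 3, so the number of arrays limits the precision. The fit was tested on simulated data. The members and lists were chosen with earlier results of these data known. All members are named. The genes named from each of 7 pathway lists were among the 3 with the smallest adjusted p in a comparison, with values at both times. Not every such gene was named. A further rule takes 3 genes of like pattern for members with a range of 1 log2 unit or more. The 6 marker lists checked cell identity, and erythroid markers passed no JQ1 comparison (0 of 3). Alternatives covered fits of the compared groups alone, the replicate number as a block, scaling, the choice of probe set, dim genes, a variance trend and leaving out each array.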

Additional observations from a re-analysis of the deposited data

Results flagged for a closer look

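For 4 genes the JQ1 effect differed between 48 h and 6 h of PE by a test of the difference itself (limma, adjusted over all genes). The effect on Bcl2l1 was higher at 48 h by 0.29 (-0.25 at 48 h and -0.54 at 6 h, adjusted p = 0.00342), and that on Bad by 0.32 (-0.12 and -0.45, adjusted p = 0.00175). The effect on Mcl1 differed by -0.48 (-0.25 at 48 h and 0.23 at 6 h, adjusted p = 0.000445), and that on Bid by -0.22 (-0.64 and -0.43, adjusted p = 0.0167). On the brightest probe sets, every array with JQ1 lay on the stated side of every DMSO array of its time for these genes. How many of all genes were separated in this way was not counted. The genes were picked by a test on the same arrays, so this adds no separate support. On the dimmer Mcl1 probe set the JQ1 effect at 48 h was 0.29, so its direction there is not settled, and the difference between times was -0.60. On the dim Bid probe set the difference between times was 0.03 ± 0.12 (adjusted p = 0.866 over all probe sets). The difference for Bid on its main set was -0.15 with quantile normalization repeated and did not pass. Groups of 2 or 3 arrays were too small to look for single outlying arrays.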

How the results depend on the processing

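Of 1044 values of the 48 member changes under alternatives, 989 kept their direction and side of the threshold. Of the rest, 26 lost the call, 6 gained it, 4 of called genes turned sign and 19 turned sign without a call. Many alternatives could hardly move a value. Leaving out an array outside a comparison keeps its fold change, and so does another choice of probe set for genes with 1 set. The tally is therefore not a count of separate tests. The falls of Bcl2l1, Bak1, Bid and Bad and the rise of Mcl1 at 6 h of JQ1 passed under all alternatives run, as did the falls of Bak1 and Bid at 48 h. The choice of probe set turned signs: with the mean of all probe sets Bcl2l1 was 0.02 for JQ1 at 48 h and -0.02 for 48 h against 6 h of PE, and Mcl1 was 0.02 for JQ1 at 48 h. With the probe set of largest variance Mcl1 was 0.29 there, and 2 members were raised. The mean of probe sets gave 1 raised and 3 lowered for JQ1 at 48 h, 1 raised for PE at 48 h, 0 raised for 48 h against 6 h, and 1 raised in the difference of JQ1 effects. In fits of the compared groups alone, 0 members were lowered by PE at 6 h, 0 were raised at 48 h against 6 h and 1 was raised by JQ1 at 6 h. That last count was also 1 without dim genes, where Bcl2l11 was not tested, and 1 with the replicate number as a block. The numbers did not pair the arrays (26 correlations of deviations, -0.267 to 0.18, with 3 above 0.1), and the block changed no other member call. With quantile normalization repeated, 1 member was lower in the difference of JQ1 effects, and Bid (-0.15) did not pass. Leaving out 1 array gave 2 to 4 raised and 0 to 1 lowered for PE at 6 h, 1 to 2 and 2 to 2 for PE at 48 h, 0 to 1 and 3 to 3 for 48 h against 6 h, 1 to 2 and 5 to 5 for JQ1 at 6 h, 0 to 0 and 4 to 5 for JQ1 at 48 h, and 2 to 2 and 1 to 2 for the difference. When either DMSO array of PE at 6 h was left out, the lone remaining one was assumed to vary like the other groups. Causes were not tested. Dim signals limit Bcl2 and Bcl2l11.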
